A study of Sus scrofa with 6 samples.

Results

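Small RNA of the jejunum of piglets at 4 and 7 d after weaning (libraries W4 and W7) was compared with that of all suckling piglets sequenced beside them (libraries S1, S4 and S7). These are 5 of the 6 libraries of the study. The library of piglets at 1 d after weaning (W1) was kept out of the comparison and its values stand beside the results. All animals were Duroc x Yorkshire x Landrace barrows (castrated males), and each library was made from 1 pool of total RNA of 4 piglets. Per the study's methods, the weaning piglets left their sows at 25 d of age and had a commercial diet, with 1 piglet from each of 4 litters in every weaning pool. W4 thus came from piglets of 29 d and W7 from piglets of 32 d. Piglets of S1, S4 and S7 stayed with their sows until 26, 29 and 32 d of age. Since weaning was tested in 2 pools of different days, which were treated as 1 group, the p-values measure the spread among 5 pools and not among piglets. RNA was extracted from cross-sections of the jejunum and not from isolated epithelium.

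MicroRNAs (miRNAs) are short RNAs cut from hairpin precursors. They repress mRNAs that pair with their seed, the bases 2 to 8 counted from the 5′ end, so that miRNAs with the same seed share many targets. In the gut, miR-192, miR-215 and miR-194 are known as products of the epithelium, miR-143 and miR-145 as products of smooth muscle, and miR-146 and miR-155 as miRNAs induced in inflammation. Weaning of piglets is known for villus atrophy and inflammation of the small intestine, and the question of the comparison was which miRNAs differed days after weaning.

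The 5 files held 533 mature sequences, of which 286 had at least 10 reads in at least 3 of the 5 libraries and were tested. Of these 286, 224 carried the name of a known swine miRNA, 61 that of a candidate predicted by the study (names such as SSC6_13802) and 1 no name. Totals were 4492667 counts in S1, 5312358 in S4, 5373146 in S7, 4503899 in W4 and 4441416 in W7, and the tested sequences held at least 99.98% of them. Levels are given as CPM, the counts of a sequence per 1000000 counts of the library, after scaling by the trimmed mean of M-values (TMM), which sets the bulk of the sequences level between libraries. A sequence was called when the p-value of edgeR's quasi-likelihood test was under 0.05 after Benjamini-Hochberg adjustment over the 286 sequences.

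With TMM scaling, 3 sequences were higher (1.05% of those tested) and 9 were lower (3.15%) in W4 and W7 than in the suckling libraries. None of the 12 remained called when the day was added to the fit as a block (edgeR, adjusted p = 0.275 to 0.421), although each kept its direction. The called sequences are printed below as deposited, with the seed in capitals, because the shared seeds and stretches among them bear on how the counts can be read. The 9 that were lower come first.
miR-192: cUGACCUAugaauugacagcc
miR-215: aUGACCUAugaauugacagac
miR-194a: uGUAACAGcaacuccaugugg
miR-194b-5p: uGUAACAGcgacuccaugugga
miR-194b-3p: cCAGUGGAgaugcuguuaccuu
SSC7_14993: uGGCCCAGcaacuccaug
SSC18_6061: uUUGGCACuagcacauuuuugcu
miR-874: cUGCCCUGgcccgagggaccgac
miR-450b-5p: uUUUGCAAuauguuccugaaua
The 3 that were higher follow, with miR-146a-5p, which was not called, as the partner of miR-146b.
miR-146b: uGAGAACUgaauuccauaggc
miR-146a-5p: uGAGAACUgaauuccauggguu
SSC6_13802: uGUGUGUGggcgccggacgcc
SSC13_1737: uGUAGCUGuggcauagaccucag
The 12 called sequences carried 10 different seeds. miR-192 and miR-215 had the same seed, UGACCUA, and differed at 2 of 21 aligned bases. miR-194a and miR-194b-5p shared the seed GUAACAG and differed at 1 of 21 bases. miR-146a-5p and miR-146b shared GAGAACU and differed at 2 of 21 bases. miR-192 and miR-215 share a run of 18 nt and the miR-146 pair 1 of 17 nt, so a short read from such a run matches both, and the level of each member is uncertain. The longest run shared by miR-194a and miR-194b-5p was 11 nt, under the shortest sequenced read of 15 nt.

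**Figure D1:**
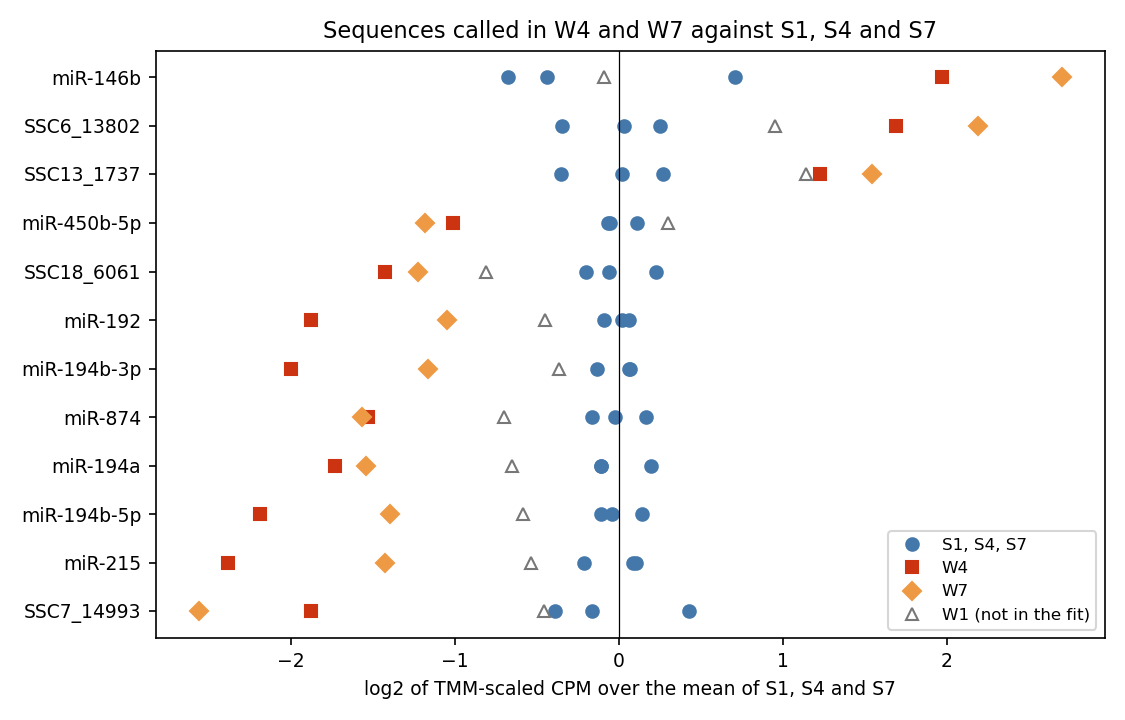
The 12 called sequences in every library, as the log2 of TMM-scaled CPM over the mean of S1, S4 and S7 (x axis, log2 units); circles are the suckling libraries, squares W4, diamonds W7 and open triangles W1, which was not in the fit. W4 and W7 lie apart from all suckling libraries in each line, as for every sequence with an unadjusted p under 0.05 (edgeR). W1 lies between the groups in 10 of the 12.

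The largest change in reads was the fall of the epithelial miRNAs. Of 6 measured epithelial miRNAs, 5 were called lower, against 3.15% of all tested sequences. The median of the 6 was -1.58 on the log2 scale against 0.04 for all tested sequences. The 5 called were miR-192, miR-215, miR-194a, miR-194b-5p and miR-194b-3p, which fell by 2.64-fold to 3.55-fold. They are the products of 2 pairs of neighbouring miRNA genes in RefSeq's swine annotation (Sscrofa11.1), MIR215 with MIR194B and MIR194A with MIR192, each pair within 10 kb. The exception was miR-429, a member of the miR-200 family of epithelial cells, which had a log2 fold change of -0.25 with TMM and 0.25 with the library total and was not called (edgeR's quasi-likelihood test with TMM, adjusted p = 0.537). The list also holds miR-375 and the other miR-200 family members (miR-141, miR-200a, miR-200b and miR-200c), which were not analysed here. In pooled tissue, fewer epithelial cells and less of these miRNAs per cell cannot be told apart.

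miR-192, the most abundant sequence, stood at 415369, 403400 and 373346 TMM-scaled CPM in S1, S4 and S7, and at 108128 in W4 and 192459 in W7. The log2 fold change was -1.40 ± 0.26 (SE, 3 against 2 libraries, edgeR's quasi-likelihood test, adjusted p = 0.0476). miR-215 had 234020, 230624 and 187255 TMM-scaled CPM in the suckling libraries, 41599 in W4 and 80826 in W7, a log2 fold change of -1.83 ± 0.31 (edgeR, adjusted p = 0.0450). For this pair the later weaning libraries lay far below the lowest suckling library, and W4 was the lower of both.

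miR-194a, the 5p product made beside miR-192, was at 11863, 9593 and 9612 TMM-scaled CPM in S1, S4 and S7 and at 3117 and 3557 in W4 and W7. Its log2 fold change of -1.63 ± 0.15 had the smallest p of all sequences (edgeR, adjusted p = 0.0110). It was the single sequence called in each of the 5 fits that leave out 1 library, with log2 fold changes from -1.73 to -1.51 in them. miR-194b-5p went from 18679, 16470 and 15725 TMM-scaled CPM in the suckling libraries to 3715 in W4 and 6438 in W7 (log2 fold change -1.74 ± 0.26, edgeR, adjusted p = 0.0285). The other arm of its precursor, miR-194b-3p, which carries another seed, was at 114, 114 and 99.5 against 27.3 and 48.7 TMM-scaled CPM (log2 fold change -1.53 ± 0.27, edgeR, adjusted p = 0.0460). Both arms of miR-194b thus fell by a like fold at very different levels.

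SSC7_14993, a candidate of 18 nt and 114 reads over the 5 libraries, shared the 13-nt run cagcaacuccaug with miR-194a and fell with it. Its raw counts were 38, 29 and 28 in S1, S4 and S7, 13 in W4 and 6 in W7 (log2 fold change -2.12 ± 0.39, edgeR, adjusted p = 0.0472). Whether its reads come from a locus of its own was not tested.

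As shares of all counts, the 5 products of the MIR192, MIR194 and MIR215 genes took 57.8%, 54.7% and 54.1% of the suckling libraries S1, S4 and S7. In W4 and W7 they took 22.4% and 30.5%. The 3 most abundant sequences, miR-192, miR-143-3p and miR-215, together held 67.5% to 72.8% of the suckling libraries and 53.5% and 62.2% of W4 and W7. These shares are raw counts over the library total, so they carry the library-total scaling and not that of TMM.

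Markers of other cell types were measured beside this fall, and their part in it was not tested. Over all sequences, W4 and W7 were both above the suckling libraries for 17.5% and both below them for 15.4%, and the counts of such markers below are to be read against these shares. Of 7 smooth muscle miRNAs, none was called with TMM scaling, 1 (miR-1) had W4 and W7 above the suckling libraries, and the median log2 fold change was 0.13. The summed level of the 7 was 172723 to 247980 TMM-scaled CPM in the suckling libraries and 227586 and 307085 in W4 and W7. Of 6 leukocyte miRNAs, none was called, 4 had W4 and W7 above the suckling libraries, and the sum was 3165 to 4975 against 5099 and 5760. miR-155-5p and miR-146a-5p, which are among these 4, are counted again below among the miRNAs induced in inflammation. The 3 red cell miRNAs miR-144, miR-451 and miR-486 summed to 531 to 653 against 435 and 423, with 2 of 3 below the suckling libraries, while their median log2 fold change of -0.52 with TMM became 0.04 with the library total. miR-122, which defines liver, was at 7.61 to 24.3 TMM-scaled CPM in the 5 libraries, and miR-216, a pancreatic miRNA, at 1.31 to 3.35. Epithelial and smooth muscle miRNAs were thus by far the most abundant of the marker lists.

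Among other known miRNAs, miR-874 and miR-450b-5p were called lower. miR-874 was at 29.1, 23.2 and 25.6 TMM-scaled CPM in S1, S4 and S7 and at 9.01 and 8.78 in W4 and W7. The log2 fold change was -1.54 ± 0.20 (edgeR, adjusted p = 0.0219). Both later weaning libraries lay below every suckling library. SSC18_6061, a candidate that has the seed of human miR-96-5p in the study's own table, was at 43.5, 53.2 and 39.5 against 16.9 and 19.4 TMM-scaled CPM (log2 fold change -1.32 ± 0.20, edgeR, adjusted p = 0.0297).

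miR-450b-5p belongs to a group of miRNA genes that neighbour each other within 10 kb in RefSeq, MIR450B, MIR450A, MIR450C and MIR542. In the human genome the same group lies on the X chromosome together with miR-424 and miR-503. miR-450b-5p had 110, 98.0 and 97.3 TMM-scaled CPM in S1, S4 and S7, 50.6 in W4 and 45.0 in W7 (log2 fold change -1.09 ± 0.15, edgeR, adjusted p = 0.0219). All 5 measured products of the neighbouring genes, as well as miR-424-5p, had W4 and W7 below each suckling library, which 15.4% of tested sequences did, but of these 6 only miR-450b-5p was called. miR-450a (log2 fold change -0.98, edgeR, adjusted p = 0.0692) and miR-450c-5p (-1.03, adjusted p = 0.0692) share all but 1 base and were not called. Their common run is 21 nt, so a short read from it matches both, and the level of each is uncertain. miR-542-3p was at -0.87 (adjusted p = 0.113). The name of the fifth product, miR-542-5p, did not match the part of the study's aligned reads at hand and is uncertain. The calls of this group rest on the scaling, since with the library total none of the 6 was called, 1 of the 6 (miR-450b-5p) still had W4 and W7 below every suckling library and miR-450b-5p had a log2 fold change of -0.55 (edgeR, adjusted p = 0.108). For the sequences of this group the fitted changes with TMM ranged from -1.09 to -0.56.

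Next in order of p among the lower sequences were miR-32 and miR-210, neither of which was called. miR-32, whose seed is that of the miR-92 family, had 51.1, 45.3 and 48.6 TMM-scaled CPM in the suckling libraries and 30.1 and 24.3 in W4 and W7 (log2 fold change -0.83 ± 0.17, edgeR, adjusted p = 0.0603). miR-210, known to be induced by hypoxia, was at 32.8, 25.2 and 22.4 against 12.1 and 13.2 (log2 fold change -1.08 ± 0.23, edgeR, adjusted p = 0.0612). With TMM, W4 and W7 lay below every suckling library for both, as they did for 15.4% of all tested sequences. Scaled by the library total, miR-32 was at 43.1 CPM in W4, within the suckling range of 37.5 to 44.9 (log2 fold change -0.28, edgeR, adjusted p = 0.396), and miR-210 had a log2 fold change of -0.55 (adjusted p = 0.126).

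The miRNA that rose most was miR-146b, of the miR-146 family, which in human and mouse represses the kinase IRAK1 and TRAF6, signalling proteins upstream of NF-κB. It was at 104, 88.2 and 231 TMM-scaled CPM in S1, S4 and S7, at 552 in W4 and at 917 in W7, a 5.2-fold rise (log2 fold change 2.38 ± 0.46, edgeR, adjusted p = 0.0476). S7 was the highest suckling library, and the lowest later weaning library was still above it. miR-146a-5p, with the same seed, was at 211, 226 and 398 TMM-scaled CPM against 464 and 656 and was not called (log2 fold change 1.01 ± 0.31, edgeR, adjusted p = 0.170). For miR-146a-5p, too, S7 was the highest suckling library.

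Of 9 measured miRNAs induced in inflammation, miR-146b was called, and the median log2 fold change was 1.01 against 0.04 for all sequences. W4 and W7 were above every suckling library for 7 of the 9, as they were for 17.5% of all tested sequences. miR-132 and miR-212 are products of neighbouring genes that CREB induces in neurons of mouse and rat. miR-132 was at 18.3, 16.8 and 26.4 TMM-scaled CPM in S1, S4 and S7 and at 40.8 and 55.2 in W4 and W7 (log2 fold change 1.22 ± 0.26, edgeR, adjusted p = 0.0603). miR-212 was close to the detection limit, with 3, 7 and 10 reads in the suckling libraries and 24 and 19 in W4 and W7 (log2 fold change 1.34, edgeR, adjusted p = 0.113). Both thus missed the threshold without overlap between the groups.

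miR-155-5p, a miRNA of activated lymphocytes and macrophages, was at 50.0, 52.1 and 81.8 TMM-scaled CPM against 112 and 106 (log2 fold change 0.83 ± 0.24, edgeR, adjusted p = 0.138). miR-150, a miRNA of mature lymphocytes, was at 52.7, 67.1 and 76.6 against 92.1 and 119 (log2 fold change 0.69 ± 0.21, edgeR, adjusted p = 0.159). miR-221-5p, the minor arm beside miR-222, had a log2 fold change of 1.23 ± 0.33 (edgeR, adjusted p = 0.113), but its name did not match the part of the study's aligned reads at hand and is uncertain. In these 3, W4 and W7 were above every suckling library, as they were for 17.5% of all tested sequences, and S7 was the highest suckling library in each. miR-21, the most abundant member of the list, had a log2 fold change of 0.32, and miR-222 and miR-221-3p had 0.44 and 0.28, none of them called with TMM.

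Also called higher were 2 candidates at low levels. SSC6_13802, which has the seed of mouse miR-466d-5p in the study's table and 76.2% G and C, had 36, 54 and 71 reads in S1, S4 and S7 and 250 and 262 in W4 and W7. That is 9.43, 12.3 and 14.3 against 38.8 and 54.8 TMM-scaled CPM (log2 fold change 1.95 ± 0.25, edgeR, adjusted p = 0.0219). SSC13_1737, for which the table gives no known seed, had 32, 31 and 27 reads against 105 and 97 (log2 fold change 1.40 ± 0.25, edgeR, adjusted p = 0.0460). For these 2 candidates W4 and W7 were above every suckling library, as for every higher sequence with an unadjusted p under 0.05 (edgeR), which adds no support. Another candidate, SSCM_18120, whose prefix SSCM stands for the mitochondrion in the study, was not called. It had 6.29, 13.6 and 10.3 TMM-scaled CPM in the suckling libraries, 55.0 in W4 and 21.7 in W7, so that W4 and W7 differed from each other about as much as W7 from the suckling libraries (log2 fold change 1.93 ± 0.47, edgeR, adjusted p = 0.0878).

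The miR-29 family, which represses collagens and other matrix genes, had no member called with TMM scaling. miR-29c was at 204, 194 and 216 TMM-scaled CPM in S1, S4 and S7 and at 298 and 308 in W4 and W7 (log2 fold change 0.57 ± 0.11, edgeR, adjusted p = 0.0543). miR-29a, which differs from it at 1 of 22 aligned bases, was at 231, 218 and 255 against 336 and 350 (log2 fold change 0.55 ± 0.12, edgeR, adjusted p = 0.0681). W4 and W7 were above every suckling library for these 2, as they were for 17.5% of all tested sequences. miR-29b had a log2 fold change of 0.58 with overlap between the groups (edgeR, adjusted p = 0.551). miR-378, encoded within the gene of the metabolic coactivator PGC-1β, was at 2820, 2621 and 2936 against 3641 and 4731 TMM-scaled CPM (log2 fold change 0.58 ± 0.14, edgeR, adjusted p = 0.0878).

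**Figure D2:**
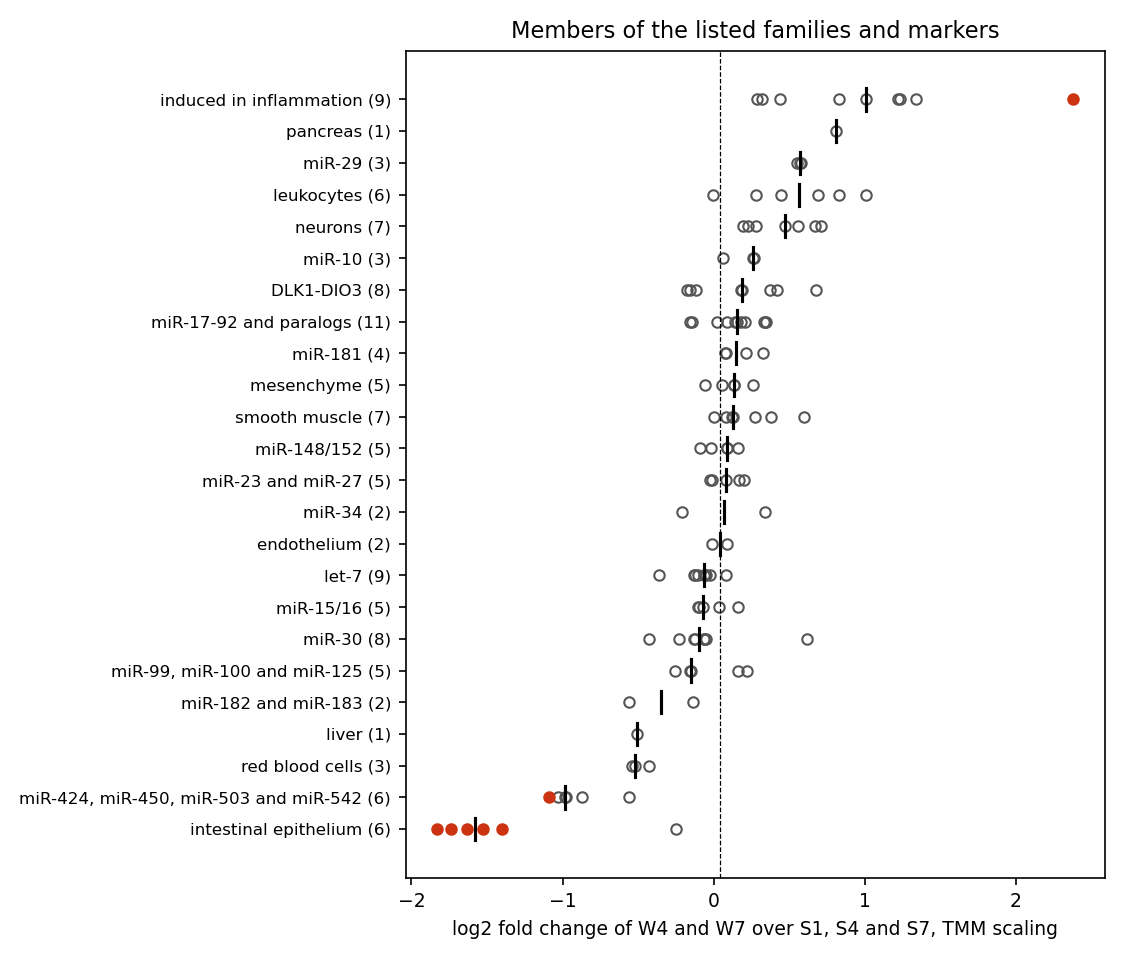
Log2 fold change of W4 and W7 over S1, S4 and S7 with TMM scaling (x axis) for the measured members (number in brackets) of 24 lists of families and markers; filled points were called, bars are list medians and the dashed line is the median of all 286 sequences, 0.04. The epithelial list has 5 called members at the left and a sixth, miR-429, near the line.

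Most families stayed near the middle of the distribution. The 9 let-7 sequences had a median log2 fold change of -0.07, with 6 of them below the suckling libraries (15.4% of all sequences) by small amounts and none called, and with the library total the median turned to 0.46. The 11 sequences of miR-17-92 and its paralogs had a median of 0.15, 7 of the 8 of miR-30 lay between -0.43 and -0.05, the 5 of mesenchyme had 0.14 and the 2 arms of endothelial miR-126 had 0.04. The remaining miR-30 sequence, miR-30c-3p, was at 0.62, and its name did not match the aligned reads at hand and is uncertain. All 7 neuronal miRNAs were on the higher side, with a median of 0.47 and W4 and W7 above every suckling library for 3 of them (17.5% of all sequences), and none was called.

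With the library total in place of TMM, the picture of the higher sequences was another. By edgeR's quasi-likelihood test, 57 sequences were then higher (19.9%) and 8 lower (2.8%) at an adjusted p under 0.05. The median log2 fold change of all 286 sequences was 0.58 with the library total and 0.04 with TMM, and the shift stands beside the smaller share of miR-192 and miR-215 in W4 and W7. TMM factors were 0.849, 0.828 and 0.924 in S1, S4 and S7 and 1.43 and 1.08 in W4 and W7. Of the calls, 11 were made in the same direction by both scalings, 54 by the library total alone and 1, miR-450b-5p, by TMM alone. The counts do not tell which scaling is right, because no spike-in of known amount is used here.

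**Figure D3:**
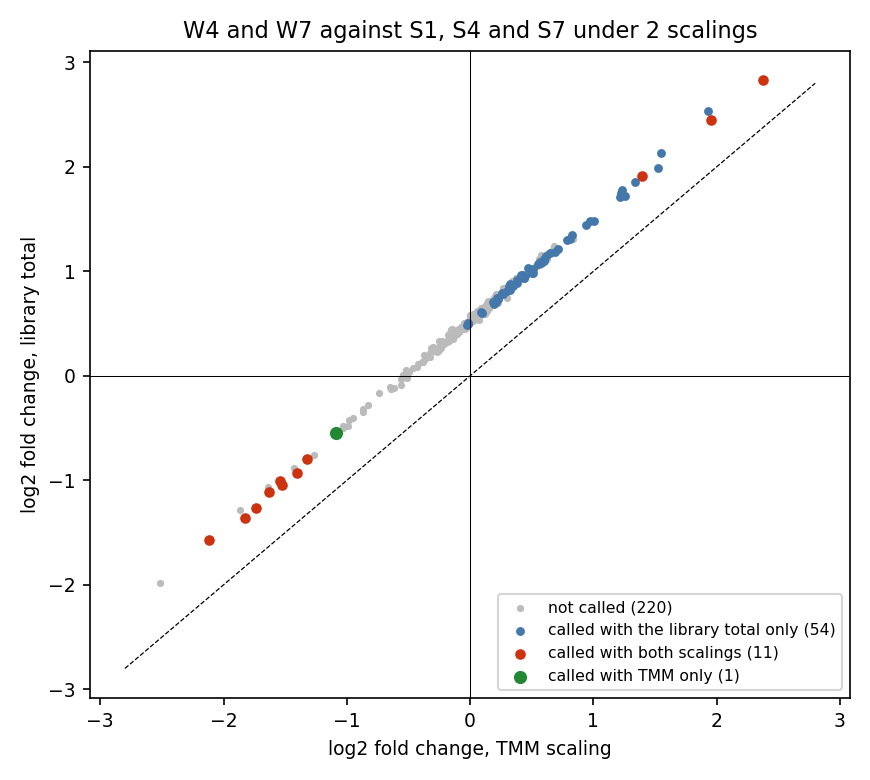
Log2 fold change of each of 286 sequences with TMM scaling (x axis) and with the library total (y axis); the dashed line marks equal values. All points lie above the dashed line, 11 sequences were called with both scalings, 54 with the library total only and 1 with TMM only.

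miR-143-3p, the main miRNA of intestinal smooth muscle, shows what depends on the scaling. It took 16.5%, 20.3% and 15.7% of counts in S1, S4 and S7 and 32.1% and 32.8% in W4 and W7. With the library total this was a log2 fold change of 0.89 (edgeR, adjusted p = 0.00583). With TMM it was at 193937, 245058 and 170311 against 224246 and 304469 CPM, where W4 lies within the suckling range (log2 fold change 0.38 ± 0.22, edgeR, adjusted p = 0.432). miR-10a-5p and miR-10b, encoded in the HOX clusters and different at 1 base, were at 0.78 each with the library total (edgeR, adjusted p = 0.0346 and 0.0350) and at 0.26 each with TMM (adjusted p = 0.537 and 0.551). miR-181a, known from lymphocyte development, had 0.82 (adjusted p = 0.0149) and 0.33 (adjusted p = 0.368).

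For 3 of the sequences called higher with the library total, miR-27b-3p, miR-27a and miR-26a, the log2 fold change with TMM was slightly negative, from -0.03 to -0.01. Among the inflammation list 8 of 9 were called higher with the library total, among leukocyte miRNAs 4 of 6, among neuronal miRNAs 3 of 7 and among smooth muscle miRNAs 2 of 7, against the background of 19.9%. miR-155-5p and miR-146a-5p count in both the inflammation and the leukocyte list. miR-132 (log2 fold change 1.71, edgeR, adjusted p = 0.00647), miR-378 (1.09, adjusted p = 0.00583), miR-29c (1.09, adjusted p = 0.0175) and SSCM_18120 (2.54, adjusted p = 0.0164) were called with this scaling. Of the 6 epithelial miRNAs, 5 were called lower with either scaling, against 3.15% of all tested sequences with TMM and 2.8% with the library total. The median of the 6 was -1.08 with the library total. The exception, miR-429, then had W4 and W7 above every suckling library (log2 fold change 0.25, not called).

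W4 and W7 lay on the same side of the suckling libraries for all 12 called sequences. With TMM they did so for all 28 higher and all 25 lower sequences with an unadjusted p under 0.05 (edgeR). The separation thus goes with a small p and adds no support to the calls. Which of W4 and W7 was the farther depended in part on the scaling. miR-192, miR-215 and both arms of miR-194b were lower in W4 than in W7 with either scaling, and miR-146b and SSC6_13802 were higher in W7 with either. For miR-194a, W4 was the lower with TMM, but with the library total W4 had 4457 and W7 3830 CPM. SSC18_6061 turned in the same way (24.2 and 20.9 CPM with the library total), and so did SSC13_1737, which was higher in W7 with TMM and had 23.3 CPM in W4 and 21.8 in W7 with the library total. W4 and W7 differed by a median of 0.29 in log2 over all sequences, suckling libraries from each other by 0.18 to 0.26, and W4 or W7 from a suckling library by 0.26 to 0.35. At least 2-fold apart were 13 sequences between W4 and W7, 8 to 16 between suckling libraries and 24 to 41 across the groups.

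Since W4 and W7 lay outside the suckling range for all 12 called sequences, the signs within each day follow from that, and the within-day values give the sizes. The log2 ratio of W4 to S4 was -2.47 to -0.95 for the 9 lower sequences and 1.21 to 2.65 for the 3 higher ones. The log2 ratio of W7 to S7 was -2.17 to -0.96 and 1.90 to 1.99. Each of these ratios compares 1 library with 1 and has no replicate check.

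**Figure D4:**
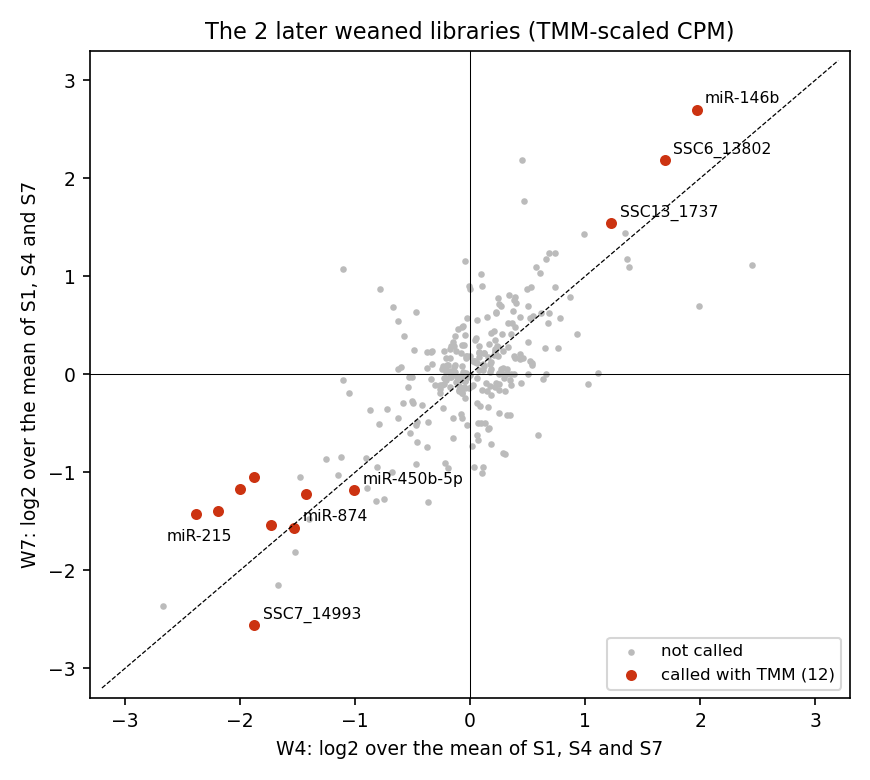
Log2 of TMM-scaled CPM over the mean of S1, S4 and S7 in W4 (x axis) and in W7 (y axis) for 286 sequences; the 12 called ones are marked. The called sequences lie in the corners where both libraries differ in the same direction, as every sequence with an unadjusted p under 0.05 (edgeR) does. miR-215 is farther from 0 in W4 and miR-146b farther from 0 in W7.

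W1 entered none of these fits, and its values are set beside them with no test. Of the 12 called sequences, W1 lay between the suckling and the later weaning libraries for 10, within the suckling range for miR-146b and above it for miR-450b-5p. miR-192 was at 291503 TMM-scaled CPM in W1, miR-215 at 149996 and miR-194a at 6607, all below each suckling library and above W4 and W7. miR-146b was at 132 in W1 and so did not stand out at 1 d. miR-450b-5p was at 125, the highest of the 6 libraries. For comparison, among the 94 sequences with W4 and W7 both outside the suckling range, W1 lay between the groups for 31 and within the suckling range for 32.

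The calls were few and depended on single libraries. In edgeR fits with TMM scaling, there were 0 higher and 1 lower sequence without S1, the same numbers without S4, 9 and 14 without S7, 1 and 4 without W4, and 0 and 6 without W7. All 12 kept their direction throughout. With the library total the numbers were 25 and 6 without S1, 4 and 4 without S4, 28 and 4 without S7, 12 and 4 without W4, and 145 and 5 without W7. Libraries of a day share that day, while the piglets of all libraries came from the same 4 litters. A fit with the day as a block leaves 1 residual degree of freedom, and edgeR with TMM then called 0 sequences. In it, 15 higher and 15 lower ones had an unadjusted p under 0.05, as against 28 and 25 without the block. The adjusted p of the 12 sequences in the blocked fit was 0.275 to 0.421, with log2 fold changes of -1.53 for miR-194a, -1.43 for miR-192, -1.84 for miR-215 and 2.31 for miR-146b. With the library total, the blocked fit called 8 higher and 2 lower sequences, among them miR-146b (edgeR, adjusted p = 0.000748) and miR-215 (adjusted p = 0.00390).

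**Figure D5:**
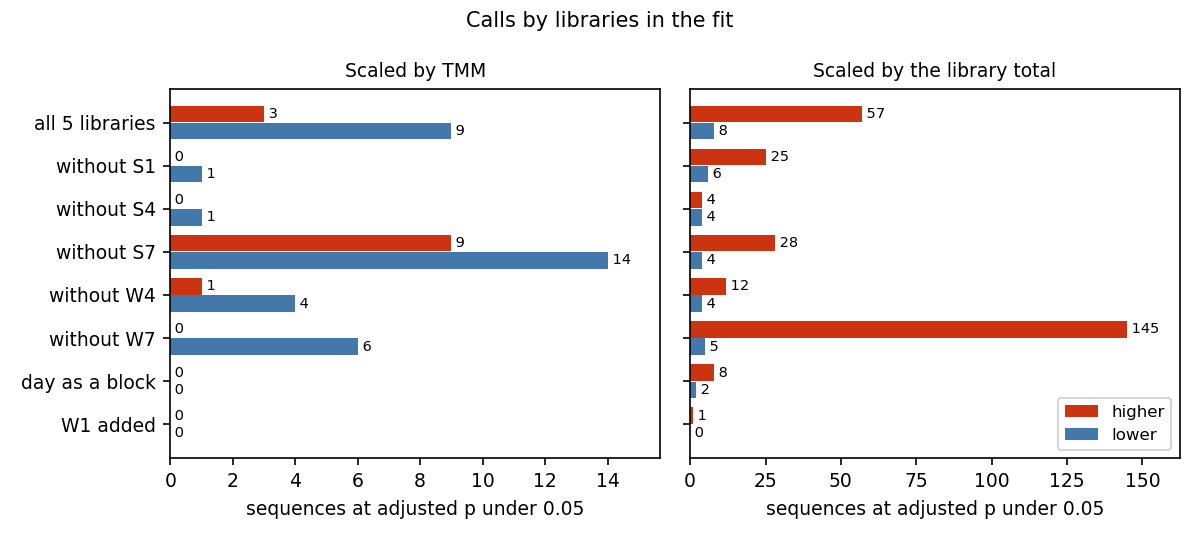
Number of sequences called higher or lower (x axis, adjusted p under 0.05, edgeR's quasi-likelihood test) with all 5 libraries, without each library, with the day as a block and with W1 added to the weaning side, for TMM (left) and the library total (right). The count with TMM falls to 0 with the day as a block and with W1 added.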

How the data were processed

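Total RNA of jejunum was pooled, 4 piglets per library, and RNA of 15 to 32 nt was sequenced. The authors removed adapters, aligned clean reads without mismatches to the draft swine genome (Sscrofa 9.2) with Bowtie (the submitters' processing notes name version 0.12.2), used miRDeep to predict candidates and took known miRNAs and other RNA classes from miRBase 19 and Rfam 10.1. Each deposited file lists raw counts of 1 library by mature sequence. For reads with several alignments, how they were counted is not stated in the sources at hand.

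The files give sequences without names. Names came from the study's supplementary tables, for candidates by identical sequence and for known miRNAs by equal counts in all 6 libraries (at least 20 reads), and no other value was taken from them. Of 157 names with aligned reads at hand, 134 shared 15 nt with them and 23 did not. Only part of the study's aligned reads was at hand, so a missing match can also come from reads not seen. For 54 sequences on several rows, the highest count was used 1 time. No value is given for miR-24, whose names stand on different sequences, and both arms of miR-133a stand on 1 sequence.

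Counts of W4 and W7 against S1, S4 and S7 were tested with edgeR 4.0.16 (quasi-likelihood, R 4.3.3) with TMM and again with the library total, for sequences with at least 10 reads in at least 3 of 5 libraries. W1 was placed on the TMM scale of the 5. Common dispersion was 0.0410 with TMM and 0.0547 with the library total. The fit with TMM was also run on simulated counts. These had less spread than the data and as many rises as falls, so that run is no check of the calls made here. DESeq2 1.42.0, limma 3.58.1 (voom) and Python 3.11.15 served for alternatives and summaries. The number in a title is a day shared by a weaning and a suckling pool, and a fit with the day as a block was added. Deviations of same-day libraries from their group means correlated at -0.128 for day 4 and -0.112 for day 7 over 173 sequences of at least 500 reads.

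The members, the 24 lists and the tests were chosen with earlier results of these data known. Named were all calls with TMM (or, where a direction had fewer than 12, the smallest p up to 12 with at least 100 reads), the 8 smallest p per direction with the library total, the 5 most abundant sequences and members of the lists. Neighbouring genes were read from RefSeq (Sscrofa11.1), where 209 of 224 known names had a gene; no coordinates are given, because the files use another build. Intervals cover counting error only.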

Additional observations from a re-analysis of the deposited data

Results flagged for a closer look

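W1 was not used in the comparison, and 2 candidates called higher in W4 and W7 were already above every suckling library in it. SSC6_13802 was at 23.2 TMM-scaled CPM in W1 against at most 14.3 in the suckling libraries, from 112 reads. SSC13_1737 was at 15.3 in W1 against at most 8.39, from 74 reads.

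For 3 of the named abundant miRNAs the day-4 and the day-7 ratio to the suckling library of the same day had opposite signs with TMM scaling. The log2 ratio of miR-143-3p was -0.13 for W4 to S4 and 0.84 for W7 to S7. miR-10a-5p had 0.37 and -0.01, and miR-10b, which shares all but 1 base with it, 0.38 and -0.02. Exact 95% intervals of the day-7 ratios, which cover counting error only, were -0.0210 to -0.00227 for miR-10a-5p and -0.0309 to -0.0111 for miR-10b. Scaled by the library total, the signs were the same on both days, with log2 ratios of 0.66 and 1.06 for miR-143-3p, 1.16 and 0.21 for miR-10a-5p and 1.16 and 0.20 for miR-10b, so the opposite signs depend on the scaling. The difference between the days was not tested, since each ratio compares 1 pool with 1.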

How the results depend on the processing

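With TMM scaling, 3 higher and 9 lower sequences became 6 and 9 without the filter on low counts, 6 and 9 when scaled by the total of all but the 3 most abundant sequences, 11 and 18 with DESeq2's own test, 8 and 14 at an adjusted p of 0.10, and 57 and 8 with the library total. Leaving out 1 library gave 0 to 9 higher and 1 to 14 lower sequences, where a lone W4 or W7 is assumed to vary like the other group. The same 12 sequences were called without the filter, with that total, without S7 and by DESeq2. The replicate block (the day, which pairs W4 with S4 and W7 with S7) gave 0 higher and 0 lower with TMM, and adding W1 to the weaning side gave 0 and 0 (17 and 26 at an unadjusted p under 0.05). With the library total, 57 higher and 8 lower became 8 and 2 with the replicate block, 1 and 0 with W1 added, 143 and 8 at an adjusted p of 0.10, and 4 to 145 higher and 4 to 6 lower without 1 library. W1 lay in the suckling range for 2 of the 12 called sequences with the library total, as against 1 with TMM. Limma-voom and DESeq2's size factors each kept 11 of the 12 calls. Over all alternatives, named sequences kept their side of the threshold in 321 cases, lost a call in 65, gained a call in 33 and reversed in 0, and the cause was not tested. Sequences under 100 reads, such as miR-212, are limited by depth.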

Other observations

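The candidate SSCX_18135/SSCX_18482 had the lowest log2 fold change of all 286 sequences with TMM (-2.52), but its reads were 4, 109 and 48 in S1, S4 and S7 and 12 and 11 in W4 and W7, and it was not called (edgeR's quasi-likelihood test, adjusted p = 0.306). It was named after its values were seen. With TMM, 1.05% of all tested sequences were called higher and 3.15% lower. Among 143 sequences with under 1000 reads over the 5 libraries, 2 were called higher and 3 lower with TMM. Among the 62 with 10000 or more, 0 were called higher and 4 lower, which were miR-192, miR-215, miR-194a and miR-194b-5p.

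Of the 61 candidates, 2 were called higher and 2 lower with TMM, and 14 and 2 with the library total. Over all tested sequences, 1.05% were called higher and 3.15% lower with TMM, and 19.9% and 2.8% with the library total. Their summed share of all counts was 0.175% to 0.216% in the suckling libraries, 0.334% in W4 and 0.278% in W7. The DLK1-DIO3 miRNAs, products of an imprinted locus, had a median log2 fold change of 0.19 over 8 measured of 17 listed, with none called. miR-182 and miR-183, miRNAs of epithelial and sensory cells, had log2 fold changes of -0.56 and -0.14 with TMM and of -0.09 and 0.35 with the library total, and neither was called. The third gene of their RefSeq cluster is MIR96. No sequence was named miR-96 here, but SSC18_6061, which was called lower with both scalings, has the seed of human miR-96-5p. W4 and W7 were below all suckling libraries for miR-182 with TMM (2135 and 3882 against 4357 to 4498 CPM) and overlapped with them with the library total (3053 and 4180 against 3686 to 4024).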
